A study of Mus musculus with 2 samples.

Results

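The genes described here are 36 genes of the lysosome: 19 lysosomal hydrolases and their activators, 5 lysosomal membrane proteins and 12 subunits or accessory proteins of the vacuolar H+-ATPase (V-ATPase). They were taken by gene symbol from the 44291 genes of each expression table, and all 36 were found. All 36 also had a mean FPKM, fragments per kilobase of exon scaled to the assigned reads of the library, of at least 1 over both libraries, as did 13401 genes in all. The rule uses gene symbols and no measured value, although the list was drawn up with earlier results of these data known.

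RNA-seq was run on primary fibro-adipogenic progenitors (FAPs), the resident mesenchymal cells of skeletal muscle that can form adipocytes, isolated from the hind limb muscles of wild-type C57BL/6 mice by cell sorting. The FAPs received platelet-rich plasma (PRP), a blood product of human donors in this study, or vehicle as control, and both cultures were then kept in adipogenic induction medium with IBMX, dexamethasone and insulin. Each group held 1 library, so that 2 libraries make up the whole series, and no difference below has a replicate check. The labels call the treatment PRP, while the study's text on the transcriptome speaks of exosomes purified from the PRP of young donors. Which of these was given, and the age of the donors, cannot be told from the labels. Reads assigned to genes came to 40120843 for PRP and 34139741 for control. Mitochondrially encoded genes held 2.06% of the summed FPKM for PRP and 3.70% for control, and the part of this shift in the differences below was not tested.

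Lysosomes are acidic organelles in which proteins, glycans and lipids delivered by endocytosis and autophagy are broken down. The V-ATPase drives their acidification: its cytosolic V1 sector hydrolyses ATP and turns a rotor that lets protons through the membrane-embedded V0 sector. Most soluble hydrolases are tagged with mannose 6-phosphate in the Golgi and carried to lysosomes by receptors, and many lysosomal genes hold E-box-like CLEAR elements in their promoters that are bound by the MiT/TFE transcription factors, TFEB among them.

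The promoters are shown first because this element is the one regulatory feature that many of the 36 genes are known to share. RefSeq promoters on GRCm38.p6, reaching from 250 bases before to 50 bases after the gene start, were found for 30 of the 36 genes, and those of Asah1, Atp6v1b2, Atp6v1c1, Atp6v1h, Ctsb and Ctsh were not among them. The core CACGTG, which reads the same on both strands, lay in the promoter of 12 of the 30 genes (40.0%), whereas 12.1% of the 8655 tested genes with a promoter held it. The longer palindrome TCACGTGA, which contains that core, lay in 6 of the 30 (20.0%) and in 2.48% of the tested genes. Counted over promoters of the same length instead of genes, the core was in 35.3% of the 34 promoters of the 36 genes, in 10.2% of the 11025 of tested genes and in 7.15% of all 32851, and TCACGTGA was in 17.6%, 2.07% and 0.974%. A match of letters is a description and no proof of binding.

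The windows below show the 6 genes with TCACGTGA, followed by Lamp1, the most abundant membrane protein gene, and Ctsl, each with the core alone. Each is written 5′ to 3′ on the strand of the gene, with the motif in capitals and up to 30 bases to either side within the promoter.
Atp6v0d1: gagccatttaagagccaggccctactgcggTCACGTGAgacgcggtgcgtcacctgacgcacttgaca
Atp6v1a: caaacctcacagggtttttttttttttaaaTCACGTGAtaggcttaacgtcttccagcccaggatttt
Ctsa: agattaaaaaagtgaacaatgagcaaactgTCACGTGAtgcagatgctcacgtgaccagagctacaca
Ctsd: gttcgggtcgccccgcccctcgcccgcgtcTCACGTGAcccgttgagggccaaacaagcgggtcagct
Gla: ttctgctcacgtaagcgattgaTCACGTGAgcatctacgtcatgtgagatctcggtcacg
Mcoln1: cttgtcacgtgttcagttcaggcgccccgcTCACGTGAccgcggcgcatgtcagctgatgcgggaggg
Lamp1: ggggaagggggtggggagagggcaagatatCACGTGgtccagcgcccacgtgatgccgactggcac
Ctsl: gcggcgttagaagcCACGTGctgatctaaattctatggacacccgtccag

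On GRCm38.p6 these windows lie at chr8:105566031-105566098 on the minus strand for Atp6v0d1, at chr16:44139354-44139421 on the minus strand for Atp6v1a, and at chr2:164833730-164833797 on the plus strand for Ctsa. The window of Ctsd is chr7:142387889-142387956 on the minus strand and that of Gla is chrX:134601196-134601255 on the minus strand. Mcoln1 has chr8:3500443-3500510 on the plus strand, Lamp1 chr8:13159070-13159135 on the plus strand and Ctsl chr13:64370721-64370770 on the minus strand. Relative to the RefSeq gene start, the capitals begin at position -4 in Atp6v0d1, the nearest, and at position -236 in Ctsl, the farthest. The Lamp1 promoter held 4 copies of the core, and those of Ctsa, Ctsd, Gla and Mcoln1 held 2 each.

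Of the 36 genes, 17 were higher and 19 lower in the PRP library than in the control library, and most differed little. Differences are given as log2(FPKM + 1) of PRP minus that of control, a scale on which changes of low genes come out too small. Where a pair of FPKM values is set one against the other, that of the PRP library comes first. The median difference of the 36 genes was -0.04 on this scale, beside 0.01 over all 13401 tested genes, and their interquartile range was 0.30, beside 0.40 over the tested genes. Most of the 36 genes were more abundant than the median tested gene, and the part of level in this spread was not tested. Their summed FPKM was 2443 in the PRP library and 2411 in control, which is 0.712% and 0.711% of all FPKM. In bulk RNA, fewer cells of a type and less RNA per cell cannot be told apart.

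A difference of at least 1.5-fold was met by 3 of the 36 genes. Ctsk and Lipa were higher in the PRP library, which is 2 of 36 where 6.15% of the tested genes were that much higher, and Atp6v1e1 was lower, which is 1 of 36 where 4.57% were that much lower. These shares lie near those of all tested genes. In GENCODE M21 (GRCm38) Ctsk lies at chr3:95499256-95509362 on the plus strand, Lipa at chr19:34492318-34527474 on the minus strand and Atp6v1e1 at chr6:120794305-120822793 on the minus strand. Ctsh was also at least 1.5-fold lower with no pseudocount, or when each library was rescaled to a common sum of FPKM. The common sum was on a larger scale, so that the pseudocount weighed less there. With a pseudocount of 5 Lipa no longer passed. None of the 36 reached 2-fold in either direction, where 2.00% of tested genes were higher and 0.828% lower.

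The counting error is known for each of these genes. Reads could be worked out as whole numbers for all 36 genes, from 184 reads of Ctsf in the PRP library to 45060 reads of Ctsb there. The exact Clopper-Pearson 95% interval of the ratio of FPKM, PRP over control, lay above 1 for 9 genes, beside 26.2% of the 12367 tested genes with an interval, and below 1 for 15 genes, beside 26.1%. The other 12 intervals included 1, as did 47.8% over the tested genes. Such intervals cover counting error only and compare the libraries, not the treatments, and they are narrower for abundant genes: 33 of the 36 genes exceeded the median FPKM of tested genes in both libraries.

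**Figure D1:**
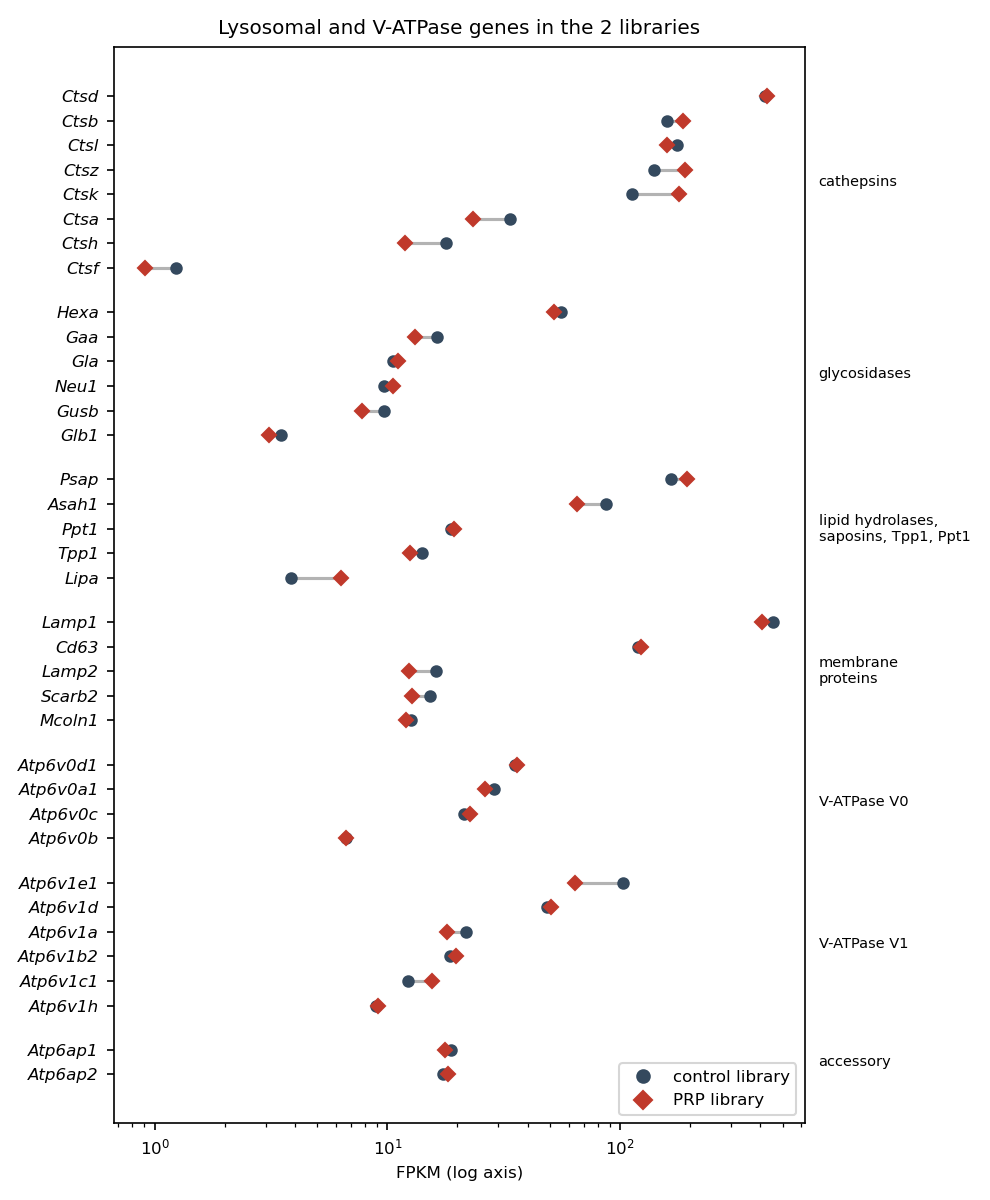
FPKM of the 36 lysosomal and V-ATPase genes (log axis) in the control library (dark circles) and the PRP library (red diamonds), 1 library each, grouped by role, with a grey line joining the values of a gene. Most pairs nearly touch, while Ctsk and Lipa sit to the right and Atp6v1e1 to the left in the PRP library.

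The plot of FPKM by gene also shows how unequal the levels were. Only 8 genes exceeded 100 FPKM in both libraries, namely Ctsd, Lamp1, Psap, Ctsz, Ctsb, Ctsk, Ctsl and Cd63, and they held 76.3% of the summed FPKM of the 36 genes in the PRP library and 72.4% in control. The order of the genes by FPKM moved little between the libraries. The largest move was that of Ctsh, by 7 places.

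The cathepsins, the main lysosomal proteases, differed in both directions. Ctsk, a cysteine protease that cleaves fibrillar collagen and is best known from osteoclasts, had 178 FPKM in the PRP library and 113 in control, a log2 difference of 0.66 and a ratio of 1.58 with a counting interval from 1.51 to 1.65. Ctsz, a carboxypeptidase, was the next highest of the group, with 190.0 FPKM against 139.7 (log2 difference 0.44). Ctsb, a cysteine protease that acts as endopeptidase and dipeptidase, had 186 against 159 FPKM (0.22). The interval of each of these ratios lay above 1, and all 3 genes stood below Ctsl in the order of levels in the control library and above it in the PRP library. Ctsk stood at 0.416 of the FPKM of Ctsd in the PRP library and at 0.271 in control.

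The other side of the group was led by Ctsh, an aminopeptidase, with 11.9 FPKM in the PRP library and 17.9 in control, a log2 difference of -0.55 and a ratio of 0.666 (0.614 to 0.722). Ctsa, a serine carboxypeptidase that also protects beta-galactosidase and neuraminidase in a complex, had 23.2 against 33.5 FPKM (-0.51). Both ratios lay close to the 1.5-fold limit without passing it on the log2(FPKM + 1) scale. Ctsl, a broad endopeptidase, had 159 against 176 FPKM (-0.15), and Ctsf, the least abundant of the 36 genes, 0.910 against 1.24 (-0.23).

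Ctsd, the major aspartic protease of lysosomes, was the most abundant gene of the group and barely differed, with 428 FPKM in the PRP library and 417 in control (log2 difference 0.04). It shares 34.4% of its exon bases with the same-strand gene model Gm49369, listed at 783 and 762 FPKM, so that its level is uncertain. Overlap with a neighbour also touched Ctsl (26.8% of exon bases), Ctsa (17.4%) and Ctsb (12.8%). The opposite-strand neighbour of Ctsb, Fdft1, had 16.9 FPKM in the PRP library and 34.3 in control. The study's methods name a stranded library kit, but whether strand was used in counting is not given in the sources used here.

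Of the 8 cathepsins 4 were higher and 4 lower, with a median difference of -0.06, and none of the 8 intervals included 1, beside 47.8% of the tested genes, though 5 of the 8 were over 100 FPKM in both libraries and have narrow intervals. They varied more among themselves than the 36 genes as a whole: the interquartile range of their differences was 0.57. Their summed FPKM was 1177 in the PRP library and 1058 in control.

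**Figure D2:**
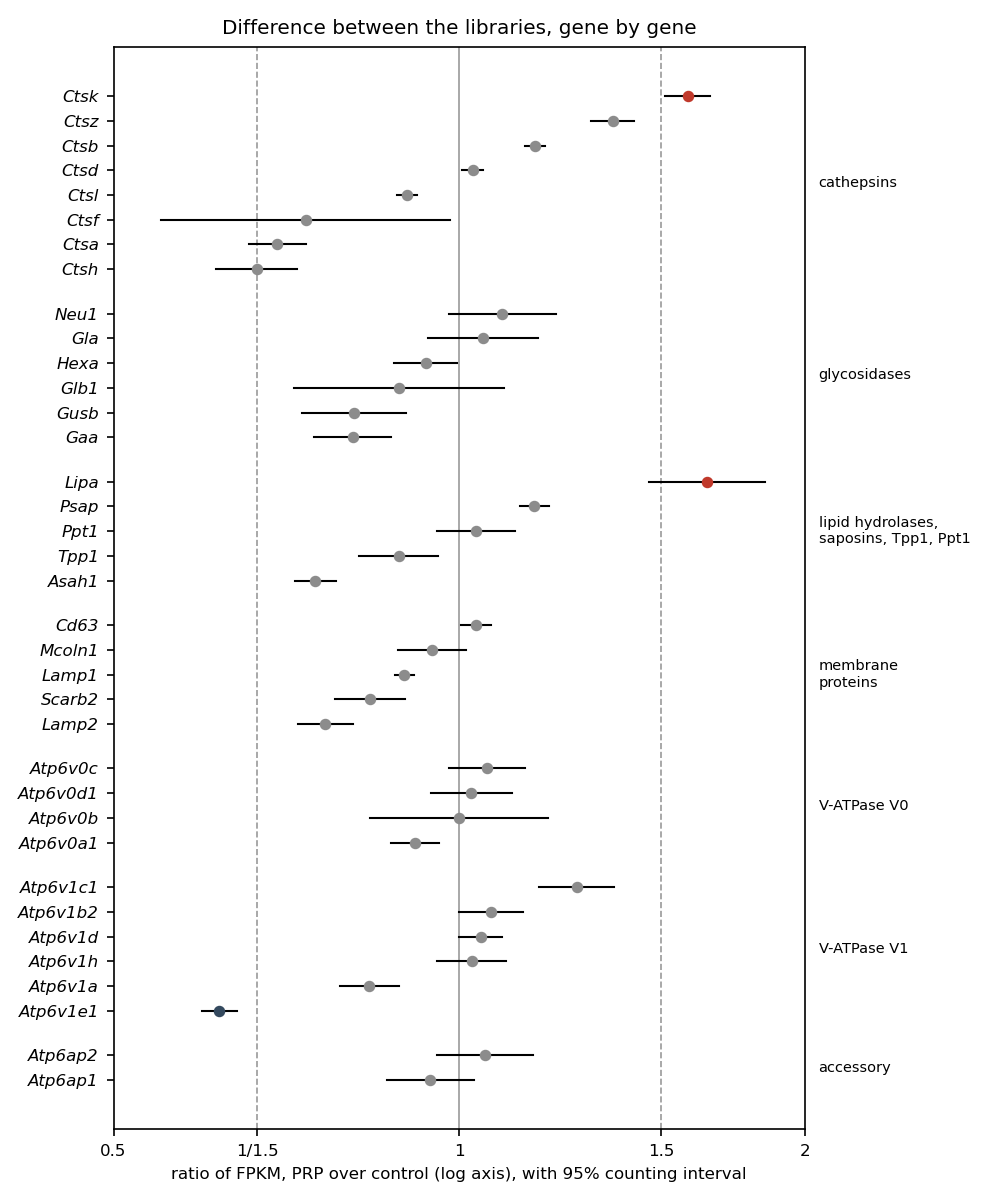
Ratio of FPKM, PRP over control (log axis), for each of the 36 genes, with exact 95% counting intervals as bars, the line of equality, and dashed lines at 1.5-fold in either direction. Red points mark Ctsk and Lipa, at least 1.5-fold higher on the log2(FPKM + 1) scale, and the dark point marks Atp6v1e1, at least 1.5-fold lower. Ctsh lies on the lower dashed line.

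The glycosidases, which cut sugars from glycogen, glycoproteins and glycolipids, all lay within 1.5-fold. Gaa, the acid alpha-glucosidase that degrades glycogen, was the lowest of the 6, with 13.2 FPKM in the PRP library and 16.4 in control (log2 difference -0.29, ratio interval 0.747 to 0.873). Gusb, the beta-glucuronidase, followed with 7.82 against 9.65 FPKM (-0.27). Hexa, the alpha subunit of beta-hexosaminidase and the most abundant glycosidase of the list, had 51.9 against 55.5 FPKM (-0.10), and the interval of its ratio, 0.878 to 0.995, ended just under 1. Hexa shares 12.8% of its exon bases with the opposite-strand gene Tmem202, listed at 5.72 and 5.62 FPKM.

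For Neu1, Gla and Glb1 the interval of the ratio included 1, so no difference was detectable at this depth. Neu1, the lysosomal sialidase, had 10.6 FPKM in the PRP library and 9.70 in control (0.11). Gla, the alpha-galactosidase, had 11.1 against 10.6 (0.06), and Glb1, the acid beta-galactosidase, 3.09 against 3.49 (-0.13). The median of the 6 glycosidases was -0.11.

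Among the enzymes of lipid breakdown, Lipa and Asah1 stood on opposite sides. Lipa, the acid lipase that frees cholesterol and fatty acids from the esters delivered to lysosomes, had 6.35 FPKM in the PRP library and 3.86 in control, a log2 difference of 0.60 and a ratio of 1.64 with an interval from 1.46 to 1.85. It had the highest ratio of the 36 genes at a low level, the third lowest by FPKM in both libraries. Asah1, the acid ceramidase, had 65.1 against 86.9 FPKM (-0.41, ratio interval 0.719 to 0.780).

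Psap, the precursor of the saposins that present sphingolipids to their hydrolases, had 193 FPKM in the PRP library and 166 in control (0.22). Tpp1, the tripeptidyl peptidase, had 12.4 against 14.1 FPKM (-0.16), and Ppt1, the thioesterase that removes palmitate from proteins, 19.3 against 18.7 (0.05). Both enzymes are known from neuronal ceroid lipofuscinosis. The interval of Ppt1 included 1, whereas that of Tpp1, 0.819 to 0.958, lay below 1.

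The 5 membrane protein genes all lay within 1.5-fold. Lamp1, a heavily glycosylated protein that coats the inner face of the lysosomal membrane, had 408 FPKM in the PRP library and 455 in control (-0.16). Lamp2, its relative with a role in chaperone-mediated autophagy, had 12.4 against 16.2 FPKM (-0.36), the lowest difference of the group. Lamp1 thus stood at 33.0 times the FPKM of Lamp2 in the PRP library and at 28.1 times in control. Such comparisons between genes depend on the summed exon length, which was 2675 bases for Lamp1 and 9552 for Lamp2. In the PRP library the reads were 43753 for Lamp1 and 4741 for Lamp2. Scarb2, the receptor that carries glucocerebrosidase to lysosomes, had 12.7 against 15.2 FPKM (-0.24).

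Mcoln1, the TRPML1 channel that releases calcium from lysosomes, had 12.0 FPKM in the PRP library and 12.7 in control (-0.07), and its interval included 1. Cd63, a tetraspanin of late endosomes and exosomes, had 123 against 119 FPKM (0.05, ratio interval 1.003 to 1.066), and was the one membrane protein gene of the list that was higher in the PRP library. A processed copy, Cd63-ps, was listed at 3.02 and 3.41 FPKM, so that reads of Cd63 could be split with it. The median of the 5 genes was -0.16.

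The V-ATPase genes had a median absolute difference of 0.08, where the other 24 genes had 0.22, and Atp6v1e1 stood apart from the rest of them. Atp6v1e1 encodes the E subunit of the peripheral stalk that holds V1 against the rotation, and it had 63.7 FPKM in the PRP library and 103 in control, a log2 difference of -0.69 and a ratio of 0.618 (0.597 to 0.641). This was the lowest difference of the 36 genes, from 10504 reads in the PRP library and 14456 in control. In contrast, 8 of the 12 V-ATPase genes differed by less than 0.10 in either direction, where 3630 of the 13401 tested genes did. Of the 12 intervals 7 included 1, a share near the 47.8% of all tested genes.

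Of the other 5 V1 subunits, 4 were higher in the PRP library and 1 was lower. Atp6v1c1, the C subunit that bridges V1 to V0, was the highest, with 15.5 FPKM in the PRP library and 12.2 in control (0.32, ratio interval 1.17 to 1.36). Atp6v1a, the catalytic A subunit, had 18.1 against 21.7 FPKM (-0.25). Atp6v1b2, its B partner in the ATP-hydrolysing ring, had 19.7 against 18.5 (0.09). Atp6v1b2 stood at 1.09 of the FPKM of Atp6v1a in the PRP library and at 0.853 in control. Atp6v1d, of the rotor, had 50.5 against 48.3 FPKM (0.06), and Atp6v1h, a regulatory subunit, 9.15 against 8.93 (0.03). The counting intervals of Atp6v1b2 and Atp6v1h included 1, and that of Atp6v1d began at 1.0006.

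Atp6v1e1 stood at 3.52 times the FPKM of Atp6v1a in the PRP library and at 4.75 times in control. The 6 V1 genes summed to 177 FPKM in the PRP library and 213 in control. Of them 4 were higher and 2 lower in the PRP library, while 2 counting intervals lay above 1, 2 below 1 and 2 included 1. For the 4 V0 genes the sums were 91.7 and 92.1 FPKM.

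In V0, Atp6v0a1, whose product forms the proton path beside the rotating ring, had 26.3 FPKM in the PRP library and 28.8 in control (-0.12), and its interval, 0.871 to 0.960, was the one V0 interval that did not include 1. Atp6v0d1, which couples the ring to the V1 rotor, was the most abundant, with 36.2 against 35.3 FPKM (0.03). The ring subunits Atp6v0c and Atp6v0b had 22.6 against 21.3 (0.08) and 6.62 against 6.63 FPKM. The value of Atp6v0c is uncertain, since the copy Atp6v0c-ps2 was listed at 12.3 and 10.8 FPKM, and Atp6v0b shares 11.8% of its exon bases with the antisense gene Gm12841. Of the accessory proteins, Atp6ap1 had 17.8 against 18.8 FPKM (-0.08) and Atp6ap2, also known as the prorenin receptor, 18.2 against 17.3 (0.07).

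**Figure D3:**
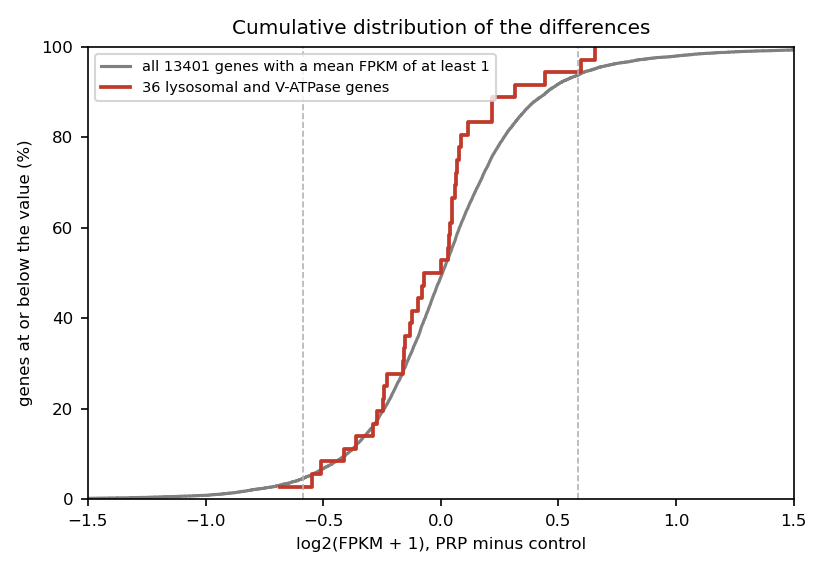
Cumulative share of genes (%) by the difference in log2(FPKM + 1), PRP minus control, for the 36 lysosomal and V-ATPase genes (red steps) and all 13401 tested genes (grey), with dashed lines at 1.5-fold. The red curve is the steeper of the curves around 0, as the interquartile range is 0.30 for the 36 genes and 0.40 for the tested genes. In both libraries 33 of the 36 genes exceed the median FPKM of tested genes, and genes of like level were not compared.

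Genes with and without the promoter motif overlapped in their differences. The 12 genes with the core CACGTG had a median difference of -0.14, ranging from -0.51 (Ctsa) to 0.06 (Gla), and the 18 genes whose promoter window did not hold these letters had 0.05, ranging from -0.69 to 0.66. For TCACGTGA the medians were -0.02 over 6 genes and -0.09 over 24. Ctsk, Lipa and Atp6v1e1 were all among the genes without the core in this window, which says nothing about a factor acting elsewhere.

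Of the MiT/TFE factors that bind such elements, Tfeb, Tfe3 and Tfec lay below the median FPKM of tested genes in both libraries. Mitf lay near that median, which was 5.39 FPKM in the PRP library and 5.37 in control. Tfeb had 0.484 FPKM in the PRP library and 0.749 in control, Tfe3 3.62 and 3.17, and Mitf 4.93 and 6.13. Tfec, a member of the family known from macrophages, had 1.08 and 0.325 FPKM, from 243 and 62 reads, and like Tfeb it did not pass the filter. Of 19 genes for these factors, the Rag GTPases, Ragulator and mTORC1, which senses nutrients on the lysosome, 16 passed the filter, none differed by 1.5-fold and the median was 0.03. The highest and lowest among those with a mean of at least 5 FPKM were Fnip2, a folliculin partner, with 6.95 against 4.65 FPKM (0.49), and Lamtor4, of Ragulator, with 10.5 against 14.0 (-0.39).

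Other genes of the same organelle, from lists drawn up by function, were described in the same way. Beside the counts of each list, 50.9% of all tested genes were higher and 49.1% lower. At least 1.5-fold higher were 6.15% of all tested genes, and that much lower 4.57%. Of 26 tested lysosomal hydrolases and activators, 6 were higher in the PRP library and 20 lower, the median being -0.14. The counting interval of the ratio lay above 1 for 3 of the 26, below 1 for 9, and included 1 for 14. The 1 past 1.5-fold on the log2(FPKM + 1) scale, named after its values were seen, was Pla2g15, a lysosomal phospholipase, with 2.17 FPKM in the PRP library and 5.33 in control (-0.998). Acp2, the acid phosphatase, had 5.03 against 7.85 FPKM (-0.55), and its plain ratio of 0.641, like the 0.616 of Smpd1, the acid sphingomyelinase, missed the limit through the pseudocount alone. Scpep1, a carboxypeptidase and the most abundant of these, had 169 against 161 (0.07).

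Of 19 tested membrane proteins and transporters, 7 were higher and 12 lower, with a median of -0.02. Mfsd12, a cysteine transporter, was past 1.5-fold lower with 3.36 against 6.97 FPKM (-0.87). Cd68, a glycoprotein best known from macrophages and also named after its values were seen, was past 1.5-fold higher with 4.56 against 2.31 (0.75). The plain ratio of Slc17a5, the sialic acid exporter, was 1.52, but its difference of 0.44 did not pass. Hgsnat, the acetyltransferase of heparan sulphate breakdown, had 38.0 against 28.5 FPKM (0.40).

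Of 13 tested V-ATPase subunits and assembly factors outside the list, 9 were higher and 4 lower, with a median of 0.05. Tmem199, an assembly factor, was the 1 gene past 1.5-fold, with 28.0 FPKM in the PRP library and 17.6 in control (0.64). Oxr1, a TLDc protein, had 40.2 against 32.9 FPKM (0.28), and Atp6v0e, a small V0 subunit, 5.91 against 6.79 (-0.17). No other V-ATPase gene of either list was at least 1.5-fold lower, beside Atp6v1e1.

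Of 16 tested genes that tag hydrolases with mannose 6-phosphate or sort them, 5 were higher in the PRP library and 11 lower. Their median was -0.23, and none was past 1.5-fold on the log2(FPKM + 1) scale. M6pr, the cation-dependent receptor, went against the group with 35.5 FPKM in the PRP library and 23.6 in control (0.57), a plain ratio of 1.503. It stood at 0.949 of the FPKM of the other receptor, Igf2r, in the PRP library and at 0.485 in control. Igf2r was itself lower, with 37.4 against 48.7 FPKM (-0.37). Gnptab, the phosphotransferase that starts the tag, had 6.36 against 9.42 FPKM (-0.50).

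Of 17 tested autophagy genes, 6 were higher and 11 lower, with a median of -0.08. Sqstm1, the p62 receptor that binds ubiquitinated cargo, had 719 FPKM in the PRP library and 386 in control (0.90), the one gene of this list past 1.5-fold on the log2(FPKM + 1) scale. Wipi1, which acts in autophagosome formation, had 16.2 against 24.6 (-0.57), with a plain ratio of 0.659 that the pseudocount kept inside the limit, and Gabarapl1, which coats autophagosomes, 40.9 against 29.8 (0.45). Sqstm1 shares 17.3% and Gabarapl1 28.3% of exon bases with other genes, and so does Mfsd12 with 29.8%.

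The cathepsin inhibitors lay on both sides. Cst3, the secreted cystatin C, had 492 FPKM in the PRP library and 656 in control (-0.41), whereas Cstb, the intracellular cystatin B, had 156 against 119 (0.40). Serpinb1a, named after its values were seen, was the 1 of 5 tested inhibitors past 1.5-fold, with 2.78 against 6.31 FPKM (-0.95). Ctsk stood at 0.363 of the FPKM of Cst3 in the PRP library and at 0.172 in control. These 2 genes differed in opposite directions, whereas Cstb differed in the same direction as Ctsk.

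**Figure D4:**
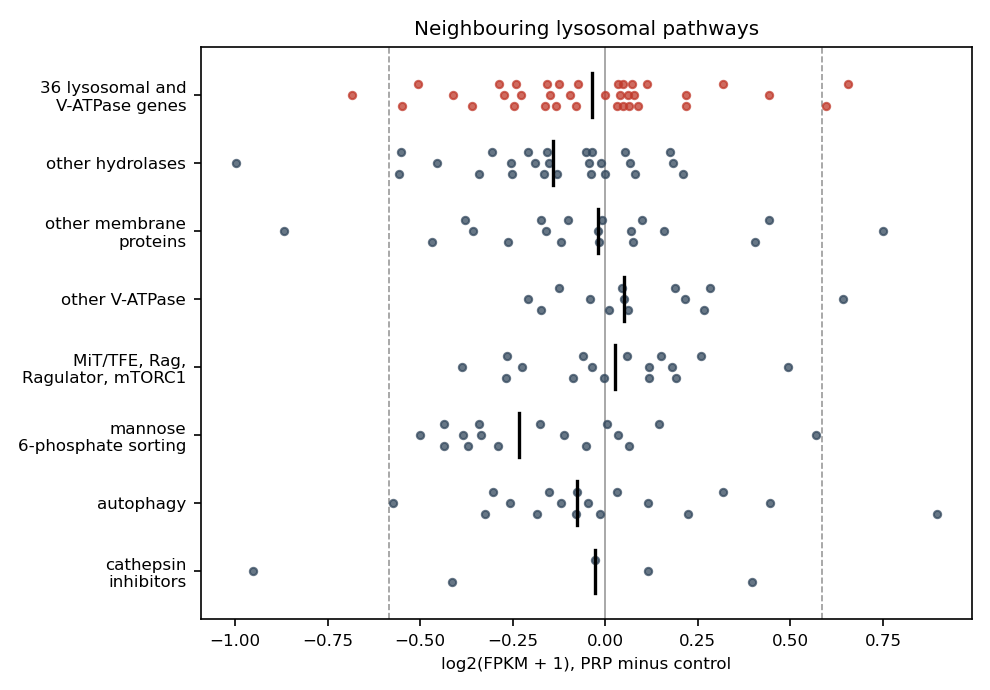
Difference in log2(FPKM + 1), PRP minus control, for each tested gene of the 36 lysosomal and V-ATPase genes (red) and of 7 related lists (blue), with a black bar at each median and dashed lines at 1.5-fold. The medians lie between -0.23 (mannose 6-phosphate sorting) and 0.05 (other V-ATPase genes).

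The plot of the related lists shows that each list had from 0 to 3 points past 1.5-fold. Most markers of other cells that could carry lysosomal RNA did not pass the filter. Among 13 macrophage markers 1 passed the filter, Lyz2 with 4.91 FPKM in the PRP library and 7.57 in control, and the 13 summed to 7.42 and 9.27 FPKM, with Ptprc and Adgre1 under 1 FPKM in both libraries. The 7 osteoclast markers, listed because of Ctsk, summed to 1.30 and 1.15 FPKM, with Dcstamp at 0 in both. Of 4 endothelial markers, Kdr had 4.23 against 1.499 FPKM, a log2 difference of 1.06 and past 1.5-fold. Tek had 4.73 against 3.56 (0.33), while Pecam1 and Cdh5 were under 1 FPKM. The myogenic markers Pax7 and Myog were at 0, and Des had 2.91 against 3.39 FPKM.

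Of the 7 FAP markers, Col1a1 (119 against 219 FPKM), Col1a2 (109 against 174), Ly6a (59.9 against 66.4) and Pdgfra (19.8 against 28.0) were well above the median tested gene, which had 5.39 and 5.37 FPKM. Dcn (7.54 against 8.36) and Cd34 (4.76 against 6.10) were near that median, and Lum was near 0 in both libraries. All 6 tested ones, Lum not being among them, were lower in the PRP library, and the 7 summed to 320 and 502 FPKM. Of 5 tested adipocyte markers 4 were higher, with Fabp4 at 40.7 against 33.6 FPKM and Pparg at 8.69 against 6.55. The counting interval of the ratio lay above 1 for these 2 genes only. For Adipoq, Cfd and Plin1, which was the lower one with 1.73 against 2.10 FPKM, it included 1. The part of these shifts in the values of the 36 genes was not tested.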

How the data were processed

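The authors trimmed reads with fastp 0.23.4, aligned them to mm10 with STAR 2.5.3a and counted them per gene with featureCounts, per the labels and the study's methods. The deposited values are FPKM as the authors computed them. The annotation release and the FPKM step are not given in the sources used here. Reads were worked out from FPKM with summed exon lengths of GENCODE M21: 26398 of 28152 genes (93.8%) came out whole within 0.001 reads in both libraries. Even read numbers were in excess, so intervals were computed on reads divided by 2. The comparison took genes whose mean FPKM was 1 or more, with a pseudocount of 1 and a threshold of 1.5-fold. With 1 library per group no test was run.

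Named were all 36 genes and, per related list, genes among the 2 highest and 2 lowest differences at a mean FPKM of at least 5, plus the MiT/TFE factors. Other genes named (Pla2g15, Smpd1, Cd68, Slc17a5, Igf2r, Serpinb1a and several cell type markers) fall outside this rule and were chosen after their values were seen. The members and lists were chosen with earlier results of these data known. Alternatives were other pseudocounts, filters, scalings, fold thresholds, centring, the mean, and the removal of genes that share exon bases. Leaving out the genes with a named pseudogene copy and using no pseudocount were chosen after seeing the data. Python 3.11.15, NumPy 2.4.6, pandas 2.3.3, SciPy 1.17.1 and matplotlib 3.10.9 were used, and the procedures were tested on simulated data.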

Additional observations from a re-analysis of the deposited data

How the results depend on the processing

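The median difference of the 36 genes lay between -0.08 and 0.02 under the alternatives tried. It was above 0 with a filter at a mean FPKM of 5 alone, which leaves out Ctsf and Glb1. The count at least 1.5-fold lower was 2 in place of 1 with no pseudocount, Ctsh being the added gene. It was also 2 when each library was rescaled to a common sum, with or without mitochondrial and top genes in it. Rescaling also lessened the weight of the pseudocount, so its effect on this count is not one of library scaling alone. The count was 0 among the 24 genes that share no exon bases with another gene, since Atp6v1e1, which shares 0.779% of its own, was then left out. At a log2 threshold of 0.32, 5 genes were lower, where 14.1% of tested genes were, and 3 higher, where 16.2% were, and at 2-fold both counts were 0. With a pseudocount of 5 the count at least 1.5-fold higher was 1, since Lipa then had 0.36. For the 19 genes that are the highest, lowest or most abundant of their role or past 1.5-fold, 6 settings could change a single value, which made 114 values. Of these 3 moved by more than the width to either side of their counting interval, those of Lipa, Ctsd and Lamp1. No paired analysis was possible because there is 1 library for PRP and 1 for control, and for the same reason no library could be left out.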

Other observations

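The 10 genes for autophagy receptors, a list chosen after the high value of Sqstm1 was seen, had a median difference of -0.02, with 5 higher and 5 lower in the PRP library. Sqstm1 alone was past 1.5-fold. Nbr1, which resembles it in domain structure, had 21.9 FPKM in the PRP library and 19.4 in control (0.16), and the mitophagy receptors Bnip3 and Fundc1 had 64.3 against 79.0 (-0.29) and 16.8 against 22.4 FPKM (-0.39).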
